A study of Homo sapiens with 6 samples.

Results

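Heparan sulfate is a long sulfated sugar chain carried by proteoglycans at the cell surface and in the matrix around cells, where it binds growth factors and morphogens. The chain is built on a short linker, extended by the EXT polymerases, and then modified by NDST enzymes, which replace acetyl groups by sulfate, and by sulfotransferases that act on the 2-O, 6-O and 3-O positions. Glypicans are core proteins that carry the chain on a lipid anchor, and in stem cells such proteoglycans present signals that the cells depend on. Matrix attachment of these genes was examined here for 10 of 20037 protein-coding genes, namely EXT1, EXT2, NDST1, NDST3, NDST4, HS6ST3, HS3ST4, HS3ST5, GPC5 and GPC6.

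The data were MAR-seq region lists, which give places where DNA stayed with the nuclear matrix, the scaffold left after nuclei are extracted and their DNA is cut with restriction enzymes. All 6 samples were H1 human pluripotent stem cells grown in mTeSR1 on Matrigel, with 2 samples per group. The groups were cells with no treatment (hPSC), cells with a short hairpin RNA targeting LUC (shLUC, taken as the hairpin control) and cells with a short hairpin RNA targeting HNRNPU (shHNRNPU), an RNA-binding protein of the nucleus also known as scaffold attachment factor A. The labels do not give the hairpin's vector, the time after its delivery or whether cells were clonal. Each group had 1 deposited list, so no value below has a replicate error and no test between groups was made. The lists hold no expression values, by which the knockdown or the pluripotent state could be checked.

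Regions numbered 40106 for hPSC, 39368 for shLUC and 36277 for shHNRNPU, each 400 bp wide, on GRCh38. HS3ST4 was chosen by its own region counts, which are higher in shHNRNPU than in shLUC, and the other 9 genes were listed with it as genes of the same pathway. Its own difference is therefore given as a description, and the question asked of the other genes was whether they held more regions in shHNRNPU too. A region was counted in a gene when at least 1 base overlapped the gene body in the RefSeq gene table.

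As deposited, the genes other than HS3ST4 did not hold more regions in shHNRNPU as a group. These 9 genes held 55 regions in shLUC and 51 in shHNRNPU, a log2 ratio of -0.11 (exact 95% interval -0.69 to 0.47 for counting error only) and 0.01 when scaled to list length. The interval takes the 2 counts as independent, but 42 regions had the same coordinates in both lists. Only 13 shLUC and 9 shHNRNPU regions were in 1 of them, so the interval is not the error of the difference. HS3ST4 itself held 5 regions in shLUC and 10 in shHNRNPU. HS6ST3, which codes for a sulfotransferase of another position, differed most in the other direction among the 10, with 9 regions in shLUC and 5 in shHNRNPU. With HS3ST4 included the sums were 60 and 61. In hPSC, the longest list, the 10 genes held 45 regions. The untreated and hairpin lists differ by the hairpin itself and by any difference in preparation or calling, and these cannot be told apart.

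**Figure D1:**
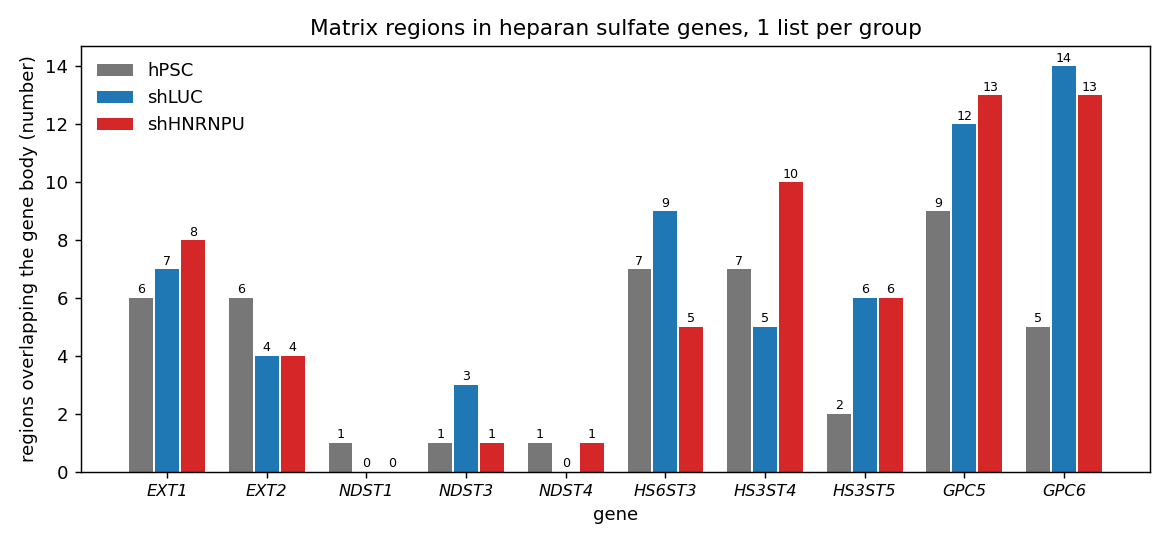
Regions overlapping each gene body (y axis) for the 10 genes (x axis, ordered from chain synthesis to core proteins) in the hPSC, shLUC and shHNRNPU lists (bars, 1 list per group, no error bars). HS3ST4 has 5 in shLUC and 10 in shHNRNPU, HS6ST3 has 9 and 5, and the remaining genes differ by 2 or less.

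Counted by gene, 4 of the 9 genes with a region in a hairpin list held more in shHNRNPU (HS3ST4, EXT1, NDST4 and GPC5), 3 held fewer (HS6ST3, NDST3 and GPC6) and 2 held the same number (EXT2 and HS3ST5). NDST1 held 0 regions in both. Among 11737 protein-coding genes with a region in either hairpin list, 22.5% held more in shHNRNPU and 30.3% fewer. Gene length matters for such counts, and 9 of the 10 genes were over 100 kb long. Among 3178 protein-coding genes of 100 kb or longer with a hairpin region, 26.1% held more and 41.1% fewer. The median difference was 0 regions for the 10 genes and 0 for the long genes. When counts were scaled to list length the split of the members became 7 more and 2 fewer. The equal counts of EXT2 and HS3ST5 then became higher ones, and GPC6 crossed to the other side. The split of the long genes became 59.3% more and 40.7% fewer. Without HS3ST4, 3 genes held more and 3 held fewer as deposited.

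Of the regions that HS3ST4, HS6ST3 and GPC5 held in shLUC, the 1 shared with hPSC in each gene lay at the gene start. The promoter windows beside these starts are therefore shown before the other values. RefSeq promoter windows, 250 bases before to 50 bases after an annotated start on GRCh38.p14, were given for 9 of the 10 genes. In each list a region was centred within 1 kb of an annotated start in 4 of these 9 genes. These were HS3ST4, HS6ST3 and GPC5 in all 3 lists, with NDST1 in hPSC and HS3ST5 in both hairpin lists. Among 15842 protein-coding genes with a window the share was 44.9% in hPSC, 27.1% in shLUC and 28.3% in shHNRNPU. The windows below run 5′ to 3′ on the strand of the gene. They belong to the 4 genes with a hairpin region at the start and, for contrast, NDST4, which had none in any list. Only the GPC5 window overlaps a region. In each list, regions covered 0 bases of the HS3ST4, HS3ST5, HS6ST3 and NDST4 windows, so these letters lie beside regions and are not their sequence. Capitals mark the recognition letters of the enzymes used to cut the nuclei (MspI, HaeIII, RsaI, AluI, BamHI and PvuII, searched on both strands).

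HS3ST4: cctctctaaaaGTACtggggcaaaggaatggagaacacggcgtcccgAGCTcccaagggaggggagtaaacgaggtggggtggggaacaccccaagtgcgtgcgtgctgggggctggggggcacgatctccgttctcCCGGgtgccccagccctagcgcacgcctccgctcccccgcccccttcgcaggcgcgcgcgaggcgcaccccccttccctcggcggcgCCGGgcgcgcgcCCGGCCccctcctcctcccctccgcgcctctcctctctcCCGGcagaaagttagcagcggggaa
HS3ST5: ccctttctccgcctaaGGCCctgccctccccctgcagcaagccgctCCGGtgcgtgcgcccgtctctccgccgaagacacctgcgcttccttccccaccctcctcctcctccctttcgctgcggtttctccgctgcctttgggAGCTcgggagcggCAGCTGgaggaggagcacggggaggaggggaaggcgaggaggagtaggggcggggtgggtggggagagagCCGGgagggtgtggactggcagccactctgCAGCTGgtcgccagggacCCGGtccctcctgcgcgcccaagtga
HS6ST3: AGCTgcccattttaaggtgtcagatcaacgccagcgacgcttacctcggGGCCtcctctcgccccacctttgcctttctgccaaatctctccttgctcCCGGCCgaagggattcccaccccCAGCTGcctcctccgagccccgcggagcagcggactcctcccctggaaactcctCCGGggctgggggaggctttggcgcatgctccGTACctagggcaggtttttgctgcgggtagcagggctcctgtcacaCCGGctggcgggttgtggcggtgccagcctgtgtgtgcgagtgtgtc
GPC5: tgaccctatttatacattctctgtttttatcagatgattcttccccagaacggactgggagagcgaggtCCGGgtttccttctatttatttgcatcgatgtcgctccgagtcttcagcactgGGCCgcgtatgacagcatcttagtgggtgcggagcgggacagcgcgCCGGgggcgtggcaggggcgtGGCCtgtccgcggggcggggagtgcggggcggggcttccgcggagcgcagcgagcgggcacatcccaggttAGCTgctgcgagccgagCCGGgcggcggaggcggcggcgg
NDST4: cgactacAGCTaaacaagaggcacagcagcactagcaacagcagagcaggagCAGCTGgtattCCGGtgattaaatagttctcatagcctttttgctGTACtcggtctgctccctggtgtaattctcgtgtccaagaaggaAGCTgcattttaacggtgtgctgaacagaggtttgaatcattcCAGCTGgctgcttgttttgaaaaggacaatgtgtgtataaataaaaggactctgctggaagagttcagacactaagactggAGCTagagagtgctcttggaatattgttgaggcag

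The windows lie at chr16:25691709-25692008 on the plus strand (HS3ST4), chr6:114342974-114343273 on the minus strand (HS3ST5), chr13:96089857-96090156 on the plus strand (HS6ST3), chr13:91398371-91398670 on the plus strand (GPC5) and chr4:115113571-115113870 on the minus strand (NDST4). The windows of the 4 genes with a hairpin region at the start were above the median in G and C, with 71.7% for HS3ST4, 70.3% for HS3ST5, 65.0% for HS6ST3 and 65.0% for GPC5, against a median of 62.3% over 22175 windows. The NDST4 window had 45.7% and 5 CpG dinucleotides, where the GPC5 window had 33. NDST1, with a region at its start in hPSC only, had a window of 60.7% and 8 CpG dinucleotides, both below the medians of 62.3% and 21. Of the 10392 genes with a window of 60% GC or more, 36.5% had a shLUC region within 1 kb of a start, against 9.16% of the other 5450. For shHNRNPU the shares came to 38.1% and 9.78%, and for hPSC to 53.7% and 28.2%. Among the members, EXT2 had windows of 56.3% to 69.0% GC and no region at a start in any list.

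The letters of the cutting enzymes were present in all 5 windows. Counting MspI (CCGG), HaeIII (GGCC), RsaI (GTAC) and AluI (AGCT), there were 7 matches in HS3ST4, 7 in HS3ST5, 8 in HS6ST3, 6 in GPC5 and 7 in NDST4, with a median of 7 over all windows. The PvuII motif (CAGCTG) contains that of AluI, whose count includes it, each motif reads the same on both strands, and MspI and HaeIII matches can share letters. Of all windows, 74.0% held the MspI motif, 84.3% that of HaeIII, 28.0% that of RsaI, 73.6% that of AluI, 18.0% that of PvuII and 7.20% that of BamHI (GGATCC). The NDST4 window, with no region near it, thus had as many matches as that of HS3ST4, although 5 of them were of AluI and 1 of MspI. The part of the cutting sites in which DNA was recovered was not tested.

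At the GPC5 start, the hairpin region chr13:91398319-91398718 covered all 300 bases of the printed window, and the hPSC region chr13:91398615-91399014 covered its last 56. At HS3ST4 the regions lay inside the gene, with the first base 278 bp past the start in both hairpin lists (chr16:25692237-25692636) and 527 bp past it in hPSC (chr16:25692486-25692885). At HS6ST3 the distances were 340 bp in the hairpin lists (chr13:96090447-96090846) and 445 bp in hPSC (chr13:96090552-96090951). The regions of the hairpin lists and of hPSC thus overlapped at these 3 starts but were offset by 249 bp at HS3ST4, 105 bp at HS6ST3 and 296 bp at GPC5. HS3ST5 had a pair of overlapping regions at its start in both hairpin lists (chr6:114342344-114342743 and chr6:114342000-114342399), whose near edges lay 280 and 624 bp inside the gene, and the nearest hPSC region was 55.9 kb away. The annotated gene LOC107986638 also overlaps that pair. In all, 5 of the 45 hPSC regions (11.1%, exact 95% interval 3.71 to 24.1), 5 of the 60 shLUC regions (8.33%, 2.76 to 18.4) and 5 of the 61 shHNRNPU regions (8.20%, 2.72 to 18.1) of the 10 genes lay within 1 kb of either end of a gene. The same share was not counted over other genes, so these values are not read as high, low or particular to the 10.

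The 3-O-sulfotransferases add the rarest of the sulfate groups, one of which antithrombin recognises. HS3ST4 (chr16:25691959-26137685, 446 kb) held 7 hPSC, 5 shLUC and 10 shHNRNPU regions. All 5 shLUC regions of HS3ST4 were in the shHNRNPU list with the same coordinates, so the higher number came from added regions and none was lost. The 5 added regions began 13.0, 74.1, 259, 279 and 341 kb from the start. The first of them overlapped an hPSC region by 188 bases (chr16:25704941-25705340 with chr16:25705153-25705552). The other 4 overlapped no hPSC region, and the nearest hPSC region lay 26.6 to 109 kb away. In protein-coding genes of 100 kb or longer, 29.2% of shHNRNPU regions absent from shLUC overlapped an hPSC region. The 5, which by definition overlap no shLUC region, lay 9.54 to 58.9 kb from the nearest one.

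The added regions lay on both sides of a long stretch without regions and inside it. In shLUC 4 of 5 HS3ST4 regions lay in the first 85.9 kb and the next 232 kb held none, which was 52.1% of the gene. In shHNRNPU the longest stretch without a region was 173 kb, as 3 of the added regions lay beyond the middle of the gene. The hPSC list had 7 HS3ST4 regions, at 0.527, 6.77, 13.2, 104, 147, 164 and 232 kb, and none in the last 213 kb. The last added region (chr16:26032916-26033315) was centred 105 kb before the end of the gene, and no list held a region beyond it. It overlapped HMGN2P3, annotated as a pseudogene, and how reads that match several copies were treated was not given in the sources used here. Within 300 kb on both sides of HS3ST4 there were 4 hPSC, 2 shLUC and 3 shHNRNPU regions. Of 1058 protein-coding genes with 5 or more shLUC regions, HS3ST4 was the 1 gene (0.0945%) with at least 2-fold as many in shHNRNPU, in the contrast by which it was chosen. Both cuts equal its own counts of 5 and 10 regions, so a higher floor or fold would leave it out. ATXN7L1 and WWOX, each with 6 shLUC and 10 shHNRNPU regions, fell short of the fold. Its place as the only gene is therefore not read as a result.

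**Figure D2:**
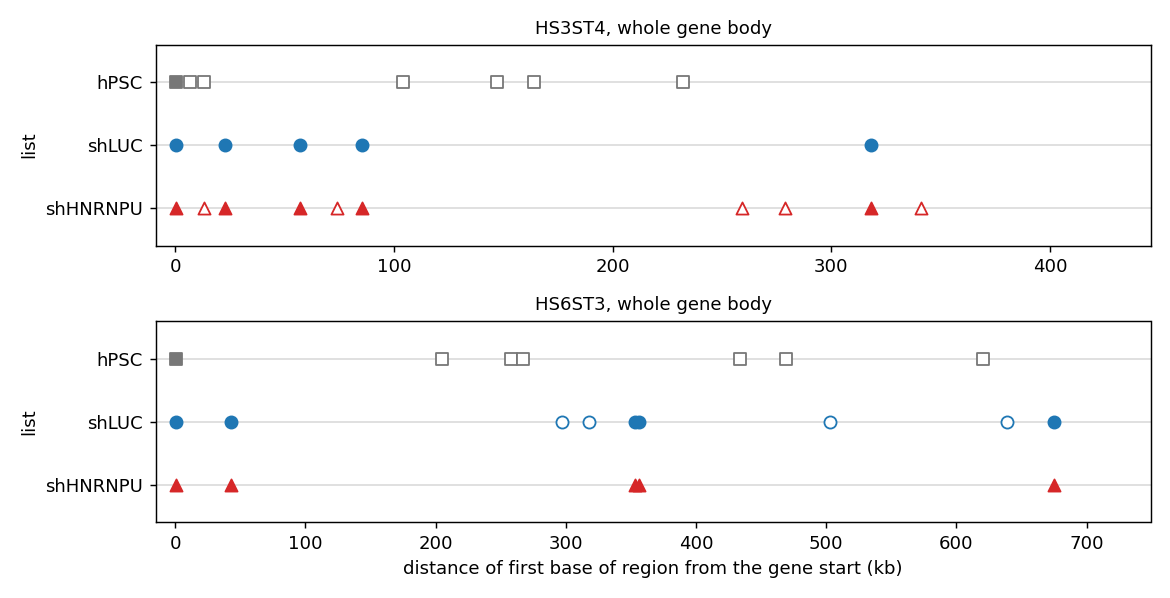
Distance of each region from the gene start in kb (x axis) over the whole of HS3ST4 (top) and HS6ST3 (bottom), with 1 row per list. Filled shLUC symbols overlap a shHNRNPU region, filled shHNRNPU and hPSC symbols overlap a shLUC region, and open symbols do not. HS3ST4 has 5 open shHNRNPU symbols and no open shLUC symbol, and HS6ST3 has 4 open shLUC symbols and no open shHNRNPU symbol.

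HS3ST5 (chr6:114055596-114343023), which codes for another 3-O-sulfotransferase, was the gene with no turnover. Its 6 regions had identical coordinates in both hairpin lists. From the start they lay at 0.28, 0.624, 31.2, 92.3, 112 and 195 kb, and the last 92.5 kb held none. The hPSC list placed 2 regions in HS3ST5, at 128 and 234 kb, of which neither overlapped a hairpin region. Such overlap was uncommon over all hPSC regions, at 14.0% for shLUC and 15.6% for shHNRNPU. The 4 hairpin regions and both hPSC regions away from the start also lay in HDAC2-AS2, a long non-coding gene that spans this part of the locus. HS3ST4 and HS3ST5, of the same enzyme family, thus both had a kept region at the start and differed in the gene body.

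HS6ST3 (chr13:96090107-96839562), a 6-O-sulfotransferase, held 7 hPSC, 9 shLUC and 5 shHNRNPU regions, the reverse of the order in HS3ST4. All 5 of its shHNRNPU regions were shLUC regions with the same coordinates, and 4 of its 9 shLUC regions were absent from shHNRNPU. The absent regions began 297, 318, 503 and 639 kb from the start, all in the body of the gene, while the region at the start was kept. They lay 34.3 to 147 kb from the nearest shHNRNPU region. None of the 4 overlapped an hPSC region, and hPSC had 7 regions in the gene. In protein-coding genes of 100 kb or longer, 14.5% of shLUC regions absent from shHNRNPU overlapped an hPSC region. The longest stretch without a region measured 319 kb in shHNRNPU, against 253 kb in shLUC and 204 kb in the untreated cells. HS6ST3 and HS3ST4 each held 7 regions in hPSC, and the shLUC and shHNRNPU values lay on either side of this in both genes.

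EXT1 and EXT2 code for the paired subunits of the polymerase that extends the chain. EXT1 (chr8:117794490-118111826) held 6 hPSC, 7 shLUC and 8 shHNRNPU regions. It kept 6 of its 7 shLUC regions and had 2 shHNRNPU regions that were not in shLUC, at 155 and 247 kb from its lower boundary. Of these the latter lay 4.30 kb from an hPSC region. One hPSC region of EXT1 spanned its upper boundary (chr8:118111680-118112079), with the nearest hairpin region 21.0 kb away. EXT1 had no promoter window, so its strand was not read here. Whether this boundary is its start was therefore not settled, and EXT1 is not in the counts of regions at starts. EXT2 (chr11:44095678-44251962) held 6 hPSC regions and 4 in each hairpin list, of which 3 were kept. The shLUC region at 152 kb was absent in shHNRNPU and another stood 2.99 kb from it, so equal counts hid a difference in position. The absent shLUC region lay 0.49 kb from an hPSC region. None of the EXT2 regions of hPSC overlapped a hairpin region. Of all hPSC regions, 14.0% overlapped a shLUC region and 15.6% a shHNRNPU region. EXT2 had the highest density of the 10 genes in each list, with 3.84 regions per 100 kb in hPSC and 2.56 in each hairpin list.

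The NDST genes code for enzymes that remove acetyl groups from the chain and put sulfate in their place, and they held few regions. NDST1 (chr5:150497779-150558211, 60.4 kb) held 1 hPSC region, 732 bp past its start (chr5:150498511-150498910), and 0 regions in both hairpin lists, whose nearest regions were 11.8 kb away. NDST3 (chr4:118033322-118258634) held 1 hPSC, 3 shLUC and 1 shHNRNPU region. The 1 shHNRNPU region of NDST3 (chr4:118205698-118206097) was kept from shLUC, and the shLUC regions at 120 and 201 kb were absent. NDST4 (chr4:114827763-115113620) held 0 shLUC regions, and its 1 shHNRNPU region had the same coordinates as its 1 hPSC region (chr4:114922648-114923047). That hPSC region had its nearest shLUC region 256 kb away. With 0 to 3 regions per list, the hairpin lists differed by at most 2 regions in each NDST gene.

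The glypicans GPC5 and GPC6 are the longest of the 10 genes, neighbours on chromosome 13, and each held 13 of the 61 shHNRNPU regions. GPC5 (chr13:91398621-92867237, 1469 kb) held 9 hPSC, 12 shLUC and 13 shHNRNPU regions. It kept 10 shLUC regions, lacked the 2 at 11.9 and 557 kb, and had 3 shHNRNPU regions that were not in shLUC. These lay in the later part of the gene, at 1000, 1102 and 1406 kb. The shHNRNPU region at 1102 kb had the same coordinates as an hPSC region (chr13:92500183-92500582), in the intronic transcript gene GPC5-IT1. With the gene divided into 3 equal parts, the part of GPC5 farthest from the start held 1 shLUC region, against 4 in shHNRNPU and 3 in hPSC.

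GPC6 (chr13:93216529-94408020, 1191 kb) held 5 hPSC, 14 shLUC and 13 shHNRNPU regions. All 5 hPSC regions of GPC6 lay in the first 393 kb and the remaining 798 kb, or 67.0% of the gene, held none. The hairpin lists placed 6 regions each in the middle of 3 equal parts, and 3 (shLUC) and 2 (shHNRNPU) in the last, so they differed in number from hPSC in the later parts of the gene and not in the first, where each list held 5. GPC6 shared the most regions with hPSC of the 10 genes, 3 with identical coordinates in all 3 lists (chr13:93227976-93228375, chr13:93454707-93455106 and chr13:93495996-93496395). Between the hairpin lists GPC6 kept 11 regions, lacked the shLUC regions at 27.8, 619 and 1086 kb and had shHNRNPU regions at 84.1 and 768 kb that were not in shLUC.

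**Figure D3:**
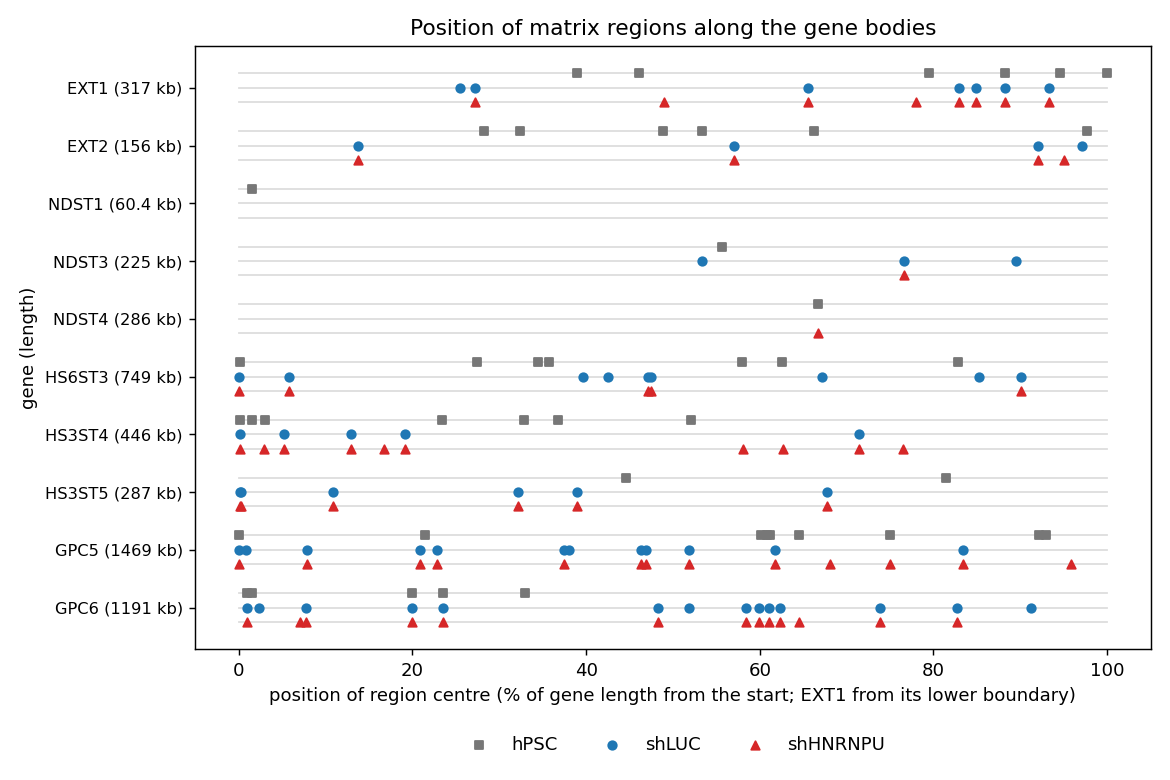
Position of each region as a percent of gene length (x axis) in the 10 genes (y axis), with 1 row per list within each gene and the annotated start at the left (the lower coordinate for EXT1). GPC6 has no hPSC region in the last 67.0% of its length, and GPC5 has 4 shHNRNPU regions and 1 shLUC region in the last of 3 equal parts.

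Density sets the genes on one scale, as regions per 100 kb of gene body. HS3ST4 had 1.57 in hPSC, 1.12 in shLUC and 2.24 in shHNRNPU. The 3356 protein-coding genes of 100 kb or longer had medians of 1.47, 1.53 and 1.41, with quartiles of 0.859 and 2.32 in shLUC and of 0.824 and 2.10 in shHNRNPU. HS3ST4 thus lay below the shLUC median and above the upper quartile in shHNRNPU, in the counts by which it was chosen. The medians of the 10 genes were 0.815, 1.19 and 0.988, each below that of the long genes. GPC5 had 0.613 in hPSC, 0.817 in shLUC and 0.885 in shHNRNPU. GPC6 had 0.42 in hPSC, 1.17 in shLUC and 1.09 in shHNRNPU, so both glypicans were sparsest in hPSC. HS6ST3 went from 0.934 in hPSC to 1.2 in shLUC and 0.667 in shHNRNPU, below the lower quartile of long genes in the last.

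**Figure D4:**
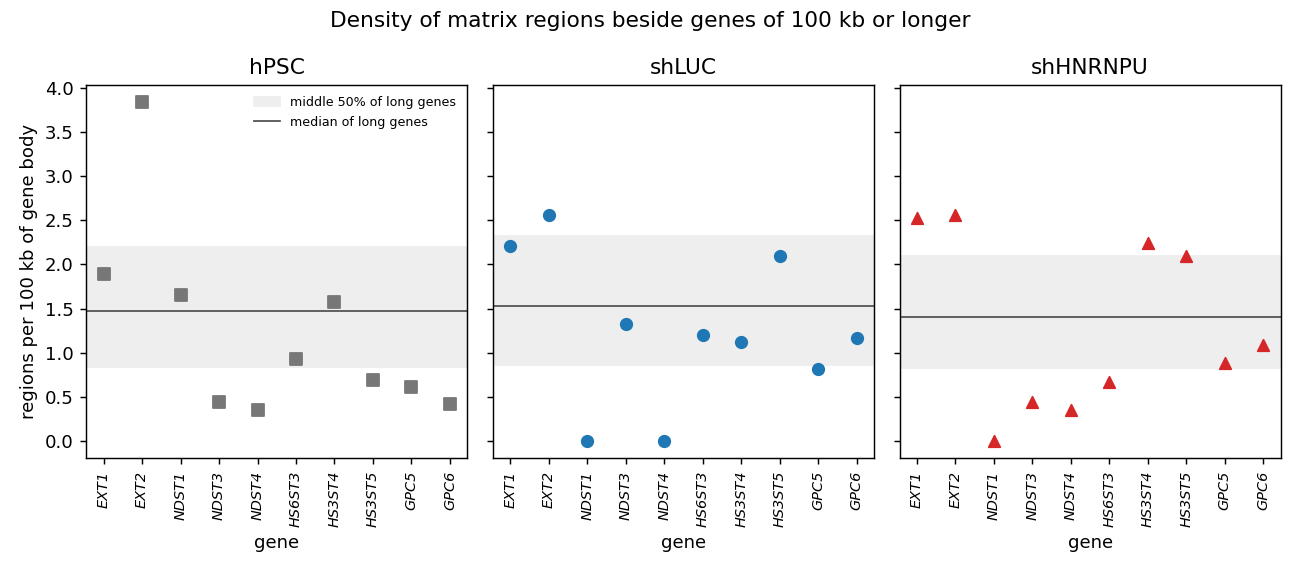
Regions per 100 kb of gene body (y axis) of each of the 10 genes (x axis), with 1 panel per list and 1 point per gene, over the median (line) and quartiles (band) of the 3356 protein-coding genes of 100 kb or longer. HS3ST4 lies at 1.12 in shLUC, under the median of 1.53, and at 2.24 in shHNRNPU, over the upper quartile of 2.10. It was chosen by its counts in these lists.

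Most regions of the 10 genes were found in both hairpin lists. Of the 60 shLUC regions in the 10 genes, 47 (78.3%, exact 95% interval 65.8 to 87.9) overlapped a shHNRNPU region, against 71.3% of shLUC regions in protein-coding genes of 100 kb or longer. Without HS3ST4 the share was 76.4% (63.0 to 86.8). All 47 regions had identical coordinates in both lists. Identical coordinates were not counted over all overlaps of the hairpin lists, so identity is not read as particular to these genes. From the other side, 47 of 61 shHNRNPU regions (77%, 64.5 to 86.8) overlapped a shLUC region, against 77.3% in long genes. The 61 include those of HS3ST4, chosen for its higher count, where 5 of 10 did. Without HS3ST4 the share from this side was 82.4% (69.1 to 91.6). Of the 14 shHNRNPU regions that were not in shLUC, HS3ST4 held 5 and the other 9 genes held 9, against 13 shLUC regions absent from shHNRNPU, none of which was in HS3ST4. These intervals cover counting error only.

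Regions of untreated cells were mostly elsewhere. Of 61 shHNRNPU regions in the 10 genes 10 (16.4%, 8.15 to 28.1) overlapped an hPSC region, and of 60 shLUC regions 7 (11.7%, 4.82 to 22.6), against 16.6% and 13.4% in long genes. Of the 14 shHNRNPU regions absent from shLUC, 3 were in hPSC (21.4%, 4.66 to 50.8), 1 each in HS3ST4, NDST4 and GPC5, against 29.2% in long genes. HS3ST4, chosen for its higher count, held 5 of the 14. Of the 13 shLUC regions absent from shHNRNPU, 0 were in hPSC, which allows up to 24.7%, against 14.5% in long genes. The intervals of the members include the long-gene values in each of these comparisons. They are wide and take regions of the same few genes as independent, so this is not a test of likeness.

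The wider pathway was examined in a list of 52 genes ordered by role, which includes the 10. Of these, 42 held a region in a hairpin list, of which 19 held more in shHNRNPU (45.2%), 12 fewer (28.6%) and 11 the same number, where 22.5% of all protein-coding genes with a hairpin region held more and 30.3% fewer. Scaled to list length, 31 held more (73.8%) and 11 fewer (26.2%), where 69.8% and 30.2% of all protein-coding genes did so. The summed regions of the list were 122 in hPSC, 126 in shLUC and 129 in shHNRNPU. Leaving out the 10, the other 42 genes held 66 shLUC and 68 shHNRNPU regions, with 15 genes holding more and 9 fewer of the 33 with a hairpin region, beside the same 22.5% and 30.3% over all genes. In the wider list, as in the 10, no other gene differed by as much as HS3ST4, which was chosen for its difference. HS6ST3 came nearest in size, at -4.

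By role, the 3-O-sulfotransferases held 20 shLUC and 24 shHNRNPU regions, with 2 of 7 genes holding more and 2 fewer, and without HS3ST4 they held 15 and 14. The 6-O-sulfotransferases held 13 and 7, with HS6ST3 and HS6ST2 (2 and 0 regions) fewer and 1 gene equal. The 6 glypicans held 29 and 32, with 4 genes holding more and 1 fewer. Each of the 4 (GPC1, GPC2, GPC3 and GPC5) held 1 region more. These counts of genes by role stand beside 22.5% more and 30.3% fewer over all protein-coding genes with a hairpin region. The chain polymerases held 14 and 16, and the linker enzymes, which build the short stem of the chain, held 10 and 10. XYLT1, which adds the first sugar of the linker, held 5 regions in each of the 3 lists.

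Among donors, UXS1, which makes the UDP-xylose used for the linker, held 5 hPSC, 1 shLUC and 3 shHNRNPU regions. HS2ST1, the 2-O-sulfotransferase, held 5, 3 and 4. HPSE2, a relative of heparanase that lacks its cutting activity, held 11, 8 and 9. Of the 3 matrix core proteins, 2 held fewer regions in shHNRNPU, where 30.3% of all protein-coding genes with a hairpin region did so. HSPG2 (perlecan) held 1, 6 and 3 regions and COL18A1 (collagen XVIII) 3, 5 and 2.

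**Figure D5:**
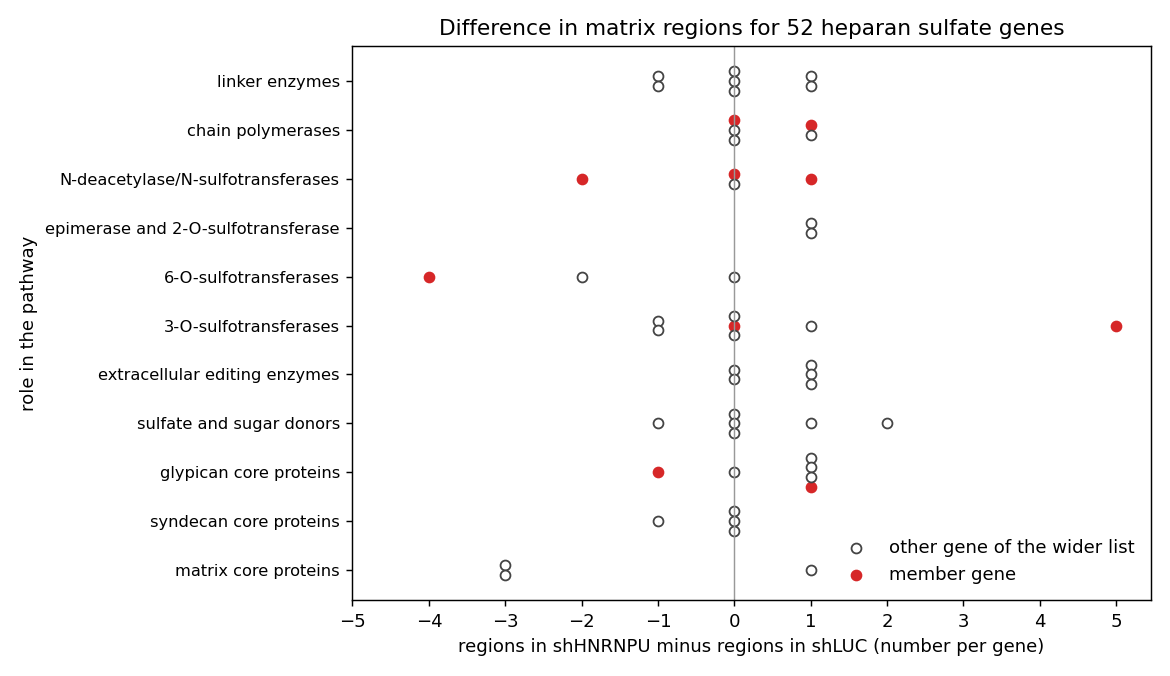
Difference in number of regions, shHNRNPU minus shLUC (x axis), for each gene of the wider list (1 point per gene, 52 genes) by role (y axis), with the 10 genes filled. HS3ST4, chosen for its difference, stands alone at 5, HS6ST3 at -4, and most genes lie at -1, 0 or 1.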

How the data were processed

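MAR-seq was carried out on H1 human pluripotent stem cells in 3 groups of 2 samples, with 1 region list deposited per group. Per the labels, nuclei were extracted, crosslinked and cut with 6 restriction enzymes, and matrix DNA and input DNA were sequenced. The submitters' processing notes name cutadapt, Bowtie2, SAMtools, MACS2, deepTools and the hg38 build. Their versions, the calling threshold, the use of the input, the pooling of samples and the reason for the common width of 400 bp were not given in the sources used here. The deposited lists hold coordinates, and a score column that is 0 in each line was not used. Read depth is unknown.

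Regions were counted in gene bodies of the RefSeq GRCh38.p14 table at an overlap of at least 1 bp, with Python 3.11.15, numpy 2.4.6, pandas 2.3.3 and scipy 1.17.1, and drawn with matplotlib 3.10.9. Shares have exact Clopper-Pearson 95% intervals, which cover counting error only. The code was tested on simulated data. No test between groups was made. Distances run from the annotated start to the nearest edge of a region, except in EXT1, where they run from its lower boundary. Alternatives were the region centre, gene bodies extended by 10 kb, regions under 1 kb apart merged, counts scaled to list length, hPSC as control, all 10 members, HS3ST4 left out, an overlap of 50% of both regions, and a distance of 5 kb.

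The members and lists were chosen with earlier results of these data known. Named were the 10 members, genes of the wider list that differed by 2 or more regions between shLUC and shHNRNPU or held 5 or more in any list, and the 3 protein-coding genes outside that list whose counts were nearest to those of HS3ST4 by the sum of absolute differences, ties by gene length. Sequences of the regions were not read here, as no genome was used.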

Additional observations from a re-analysis of the deposited data

How the results depend on the processing

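No paired analysis was possible because only 1 list per group was used, and for the same reason no replicate could be left out. Of 42 alternative values, 38 moved by less than their margin and 4 by more. With hPSC in place of shLUC as control, HS3ST4 held 3 more regions in shHNRNPU instead of 5, and 25 genes of the wider list held fewer instead of 12; the cause was not tested. With counts scaled to list length, 7 instead of 4 members and 31 instead of 19 genes of the wider list held more, since the shHNRNPU list is the shortest and equal counts, as well as the 14 against 13 regions of GPC6, then become higher ones. The log2 ratio of the other 9 members, -0.11 as reported, had no settled sign. It was -0.11 by region centre and after merging, -0.05 with extended gene bodies, 0.01 when scaled, 0.02 with all 10 members and 0.42 with hPSC as control. The interval of -0.69 to 0.47 belongs to the ratio as reported. The ratios with all 10 members, which include HS3ST4, and with hPSC are other ratios, and the interval does not test them. With 0 to 14 regions per gene and list, and read depth unknown, a difference of 1 or 2 regions in a gene cannot be told from the loss or addition of single calls.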

Other observations

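The genes outside the pathway whose counts in the 3 lists were nearest to those of HS3ST4 (7, 5 and 10 regions) were ATXN7L1, AFF3 and WWOX, by the sum of absolute differences. ATXN7L1 (272 kb), which codes for a relative of the SAGA complex protein ataxin-7, held 7 hPSC, 6 shLUC and 10 shHNRNPU regions, a summed difference of 1. AFF3 (597 kb), a nuclear protein of the AF4 family, held 7, 6 and 9, and WWOX (1113 kb), an oxidoreductase gene that spans a common fragile site, held 8, 6 and 10, each with a summed difference of 2. These genes were named for their likeness in counts over 3 lists.

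Overlaps between the hairpin lists and hPSC were of different kinds within the 10 genes. At the starts of HS3ST4, HS6ST3 and GPC5 the overlapping regions were offset by 249, 105 and 296 bp, while NDST4, GPC5 away from its start and GPC6 had overlaps with identical coordinates. The start in the GPC6 promoter entry (chr13:93226807) lies inside the gene body, whose lower end (chr13:93216529) was used for distances. The first identical GPC6 region began at chr13:93227976, and no region was centred within 1 kb of that entry's start. Offsets were also found away from starts, by 322 bp in EXT1 and by 212 bp in HS3ST4 at 13.0 kb, so the kind of overlap did not follow the place in the gene throughout. Over all genes, 22.8% of shHNRNPU regions within 1 kb of a protein-coding start that overlapped an hPSC region had its exact coordinates, against 45.6% elsewhere, and for shLUC the shares were 20.4% and 37.3%.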
